A study of Mus musculus with 13 samples.

Results

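Cardiomyocytes, the contracting muscle cells of the heart, were compared between postnatal day (PN) 67, which the labels call adult, and PN30. The members were chosen by cell type and age, with earlier results of these data known, and were 2 of the 13 RNA-seq libraries of the study, 1 library at each age. Both came from wild-type FvB mice, and at both ages the atria were cut away and the cells were freed by Langendorff perfusion, in which the coronary vessels carry the digesting solution. Neonatal cardiomyocytes (2 libraries, labelled PN1-2 and PN1) came from preplating with a Cellutron kit, and served here as the measure of noise between libraries of 1 group. Whole ventricles at PN90 and PN28, prepared from RNA depleted of ribosomal RNA, and cardiac fibroblasts at PN60 and PN28, obtained by digestion and preplating, were of the same strain and genotype and shared no library with the cardiomyocyte pair. The labels give neither the sex of the mice, nor the number pooled, nor the hour at which hearts were collected.

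Between weaning and adulthood the mouse heart muscle cell has already left the cell cycle, runs mainly on fatty acids and completes the growth of its contractile machinery. Its gene expression also follows signals from outside the cell. Glucocorticoids, the adrenal steroid hormones, bind a nuclear receptor that switches on genes such as Fkbp5 and Per1, fasting and fatty acids act through the PPAR receptors on genes such as Pdk4, and a circadian clock sets daily rhythms. Immediate early genes such as Fos answer within minutes to growth factors, stretch or handling of the cells.

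Gene levels were FPKM (fragments per kilobase of a transcript, relative to library size) added over a gene's transcripts and scaled between libraries by the median of ratios. Differences were taken on log2(FPKM + 1), which understates the change of low genes. With 1 library at each age there was no replicate and no test, so no p-value is given. A gene was called when it changed at least 1.5-fold on this scale, when the deposited 95% intervals of the PN67 and PN30 values, summed over transcripts, did not overlap, and when its change exceeded the neonatal noise. That noise limit was the larger of the gene's own difference between the neonatal libraries and the 95th percentile of such differences among genes of like level. The percentile lay between 0.33 and 0.38, below the 1.5-fold threshold of 0.585 on the log2 scale. Within the noise limit, only the gene's own neonatal difference could therefore remove a gene. Deposited coverage divided by FPKM, a value that grows with sequencing depth, had a median of 21.8 at PN67 and 23.3 at PN30. The median half-width of a deposited interval was 7.89% of the FPKM at PN67 and 7.64% at PN30. For 1699 of the 11674 genes tested (14.6%) at PN67 and 1864 (16.0%) at PN30 the FPKM lay outside its own summed interval, so the intervals were used as a guard and not as an error of the value.

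The PN67 library held more of many glucocorticoid target, immediate early and fasting-related transcripts, and less of many transcripts for fibrillar and basement membrane matrix, the cell cycle and the interferon response. Of 11674 genes with a mean of at least 1 FPKM, 385 (3.30%) were called higher and 252 (2.16%) lower at PN67. With a threshold of 2-fold, 121 (1.04%) were higher and 70 (0.600%) lower. Most genes hardly differed: the median absolute difference was 0.14 on the log2 scale, against 0.11 between the neonatal libraries, and the median difference over all genes was -0.03. The tail was wider, with a 99th percentile of 1.18, against 0.57 between the neonatal libraries. By fold and intervals alone, without the noise limit, 397 genes (3.40%) were higher and 255 (2.18%) lower at PN67, while between neonatal replicate 2 and replicate 1 the same rule called 43 (0.371%) and 97 (0.838%) of 11576 genes.

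**Figure D1:**
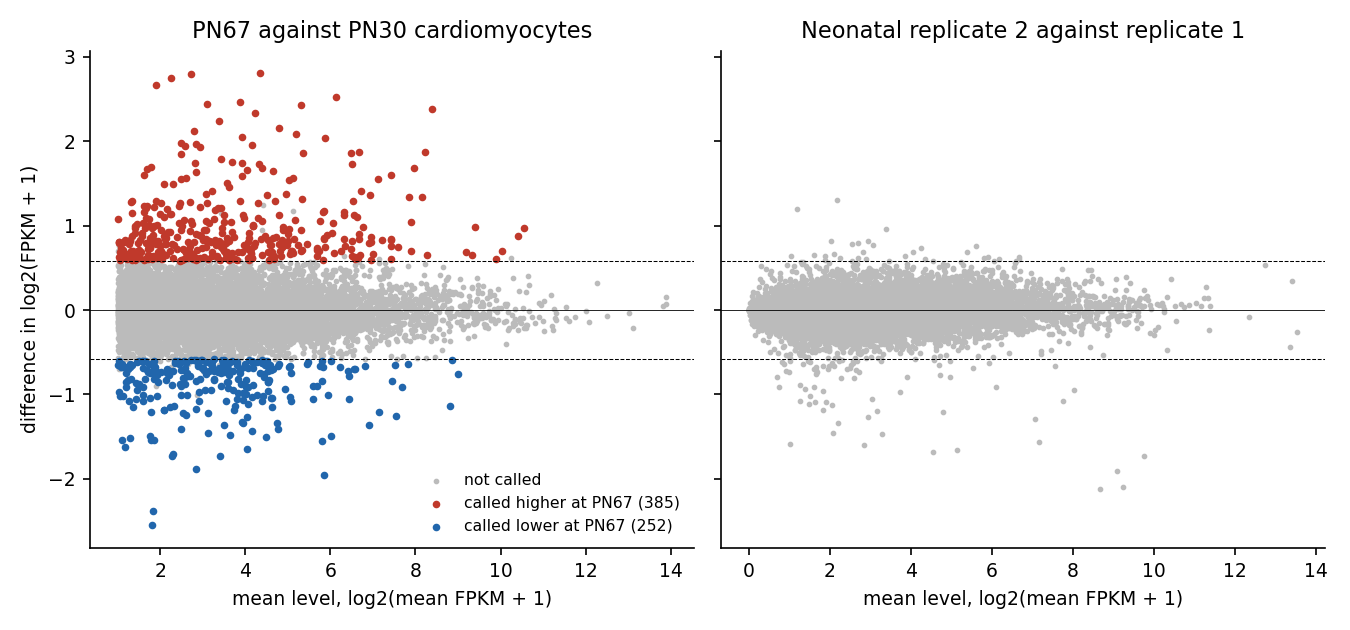
Difference in log2(FPKM + 1) of each gene (vertical axis) against its mean level (horizontal axis, log2 of mean FPKM + 1), for PN67 against PN30 cardiomyocytes on the left and for the neonatal replicates on the right. Red and blue points are the 385 genes called higher and the 252 called lower, dashed lines mark 1.5-fold, and the left cloud spreads further from 0 than the right one.

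The libraries matched their label. The 13 cardiomyocyte markers tested summed to 48019 FPKM at PN67 and 49559 FPKM at PN30, and none was called. Other cell types were present at both ages. The 9 fibroblast markers tested summed to 282 FPKM at PN67 and 328 FPKM at PN30, against 3099 FPKM in PN60 and 2876 FPKM in PN28 fibroblasts. These sums leave out Gsn, Dcn, Col3a1 and Postn, which had a failed or too deep transcript in a fibroblast library. With them, the 13 markers summed to 2220.5 FPKM at PN67 and 1667 FPKM at PN30, the opposite order, in which Gsn made up 1171 and 742 FPKM and Dcn 698 and 403 FPKM. The 15 endothelial markers summed to 2647 FPKM at PN67 and 1699 FPKM at PN30, of which the lipid-binding protein gene Fabp4 made up 1750 and 955 FPKM, while the defining genes Pecam1 (78.0 and 69.7 FPKM) and Cdh5 (70.3 and 75.7 FPKM) were not called. The 15 macrophage and leukocyte markers summed to 430 FPKM at PN67 and 424 FPKM at PN30. The 9 atrial markers summed to 215 FPKM at PN67 and 147 FPKM at PN30, with a median difference of 0.32 and a largest one of 1.24, and none was called. The neonatal libraries differed widely in these genes, with sums of 3462.5 and 970 FPKM and a median absolute difference of 1.21. As a change had to exceed the gene's own neonatal difference, the rule could hardly call an atrial marker. Over the settings, 0 to 3 were called higher. Of the granulocyte genes, S100a8 (1.99 FPKM at PN67 and 1.76 FPKM at PN30) and S100a9 (2.01 and 2.47 FPKM) were not called, Retnlg had 0.608 and 0.862 FPKM, Ngp and Camp had at most 0.0524 FPKM, and Ly6g was listed at 0 at both ages. In RNA of such mixed cells, fewer cells of a type and less RNA per cell cannot be told apart.

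The largest rise was that of Fmo2, a flavin monooxygenase gene (chr1:164804448-164828857 in mm9). Fmo2 had 34.5 FPKM at PN67, against 4.09 FPKM at PN30, and 0.846 and 0.488 FPKM in the neonatal libraries. Its deposited intervals ran from 32.6 to 36.9 FPKM at PN67 and from 3.50 to 4.71 FPKM at PN30. Inmt, a methyltransferase of small amines, had 10.5 FPKM at PN67 and 0.649 FPKM at PN30. Cyp2b10, a cytochrome P450 of drug metabolism, had 7.24 FPKM at PN67 and 0.224 FPKM at PN30, and was listed at 0 in both neonatal libraries. These genes differed by 2.80, 2.80 and 2.75 on the log2 scale and were higher at PN67 than in any other cardiomyocyte library.

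Bdh1, the mitochondrial dehydrogenase that interconverts the ketone bodies (chr16:31422366-31458987), had 118 FPKM at PN67 and 19.7 FPKM at PN30, a 5.99-fold difference. In ventricles Bdh1 had 85.6 FPKM at PN90 and 16.2 FPKM at PN28. Ptgds, a prostaglandin D2 synthase, had 557 FPKM at PN67 and 106 FPKM at PN30. Bdh1 and Ptgds were therefore abundant transcripts with a large change, and both exceeded the neonatal libraries, which had at most 0.769 FPKM of Bdh1 and 38.8 FPKM of Ptgds. Cpxm2, of the carboxypeptidase family, had 13.5 FPKM at PN67 and 1.66 FPKM at PN30, and Penk, which encodes proenkephalin, had 16.2 and 2.64 FPKM. Cpxm2 and Penk differed in ventricles as well, with 14.9 FPKM of Cpxm2 at PN90 against 1.25 FPKM at PN28, and 17.0 FPKM of Penk at PN90 against 3.63 FPKM at PN28. The metallothionein Mt2, the glutathione transferase Gsta3 and the xanthine dehydrogenase Xdh completed the 12 largest rises with Fkbp5 and Pcgf1. Isolated fibroblasts had 65.7 FPKM of Penk at PN60 and 70.0 FPKM at PN28, and 1521 and 1099 FPKM of Mt2, above both cardiomyocyte libraries. They had at most 5.01 FPKM of Cpxm2, 1.18 FPKM of Bdh1 and 0.549 FPKM of Ptgds. The part of fibroblast RNA in these rises was not tested. Pcgf1, a Polycomb subunit, had 5.45 FPKM at PN67 and 0.0178 FPKM at PN30, but the neonatal libraries had 2.02 and 0.00293 FPKM of it, so libraries of 1 group also differed widely there.

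The largest fall of an abundant gene was that of Tfrc, the transferrin receptor through which cells take up iron (chr16:32609006-32632880). Tfrc had 22.5 FPKM at PN67 and 90.2 FPKM at PN30, a 4.01-fold difference, and 21.2 and 19.6 FPKM in the neonatal libraries. PN30 was thus the only high cardiomyocyte library, and ventricles had 45.9 FPKM at PN90 and 150 FPKM at PN28. Ndrg4 had 27.6 FPKM at PN67 and 82.8 FPKM at PN30, and Klhdc8a had 3.90 and 15.2 FPKM. The extracellular matrix gene Frem2 had 1.30 FPKM at PN67 and 6.48 FPKM at PN30, and the Fc receptor gene Fcgr3 had 2.05 and 10.2 FPKM. Kcne1, the auxiliary subunit of the slow delayed rectifier potassium channel, had 1.23 FPKM at PN67 and 6.42 FPKM at PN30, after 39.1 and 40.3 FPKM in the neonatal libraries. The largest falls on the log2 scale, Abhd17c (0.0127 FPKM at PN67 and 4.93 FPKM at PN30) and Wdr92 (0.148 and 4.98 FPKM), were both near 0 in the neonatal libraries too, so that PN30 was the only cardiomyocyte library with a clear level. Ventricles had 11.4 FPKM of Abhd17c at PN90 and 12.5 FPKM at PN28, and 10.9 and 11.1 FPKM of Wdr92, without such a difference. C1qtnf6, Lrat, Lmcd1 and Grwd1 were the others of the 12.

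Gene lists were described by the number of members called and by their median, beside 3.30% called higher, 2.16% called lower and a median of -0.03 over all genes. The lists were chosen with earlier results of these data known, so their counts describe the libraries and test nothing. The lists also overlap: 6 called genes were on more than 1, among them the glucocorticoid targets Per1, Cdkn1a, Ddit4 and Pik3ip1.

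**Figure D2:**
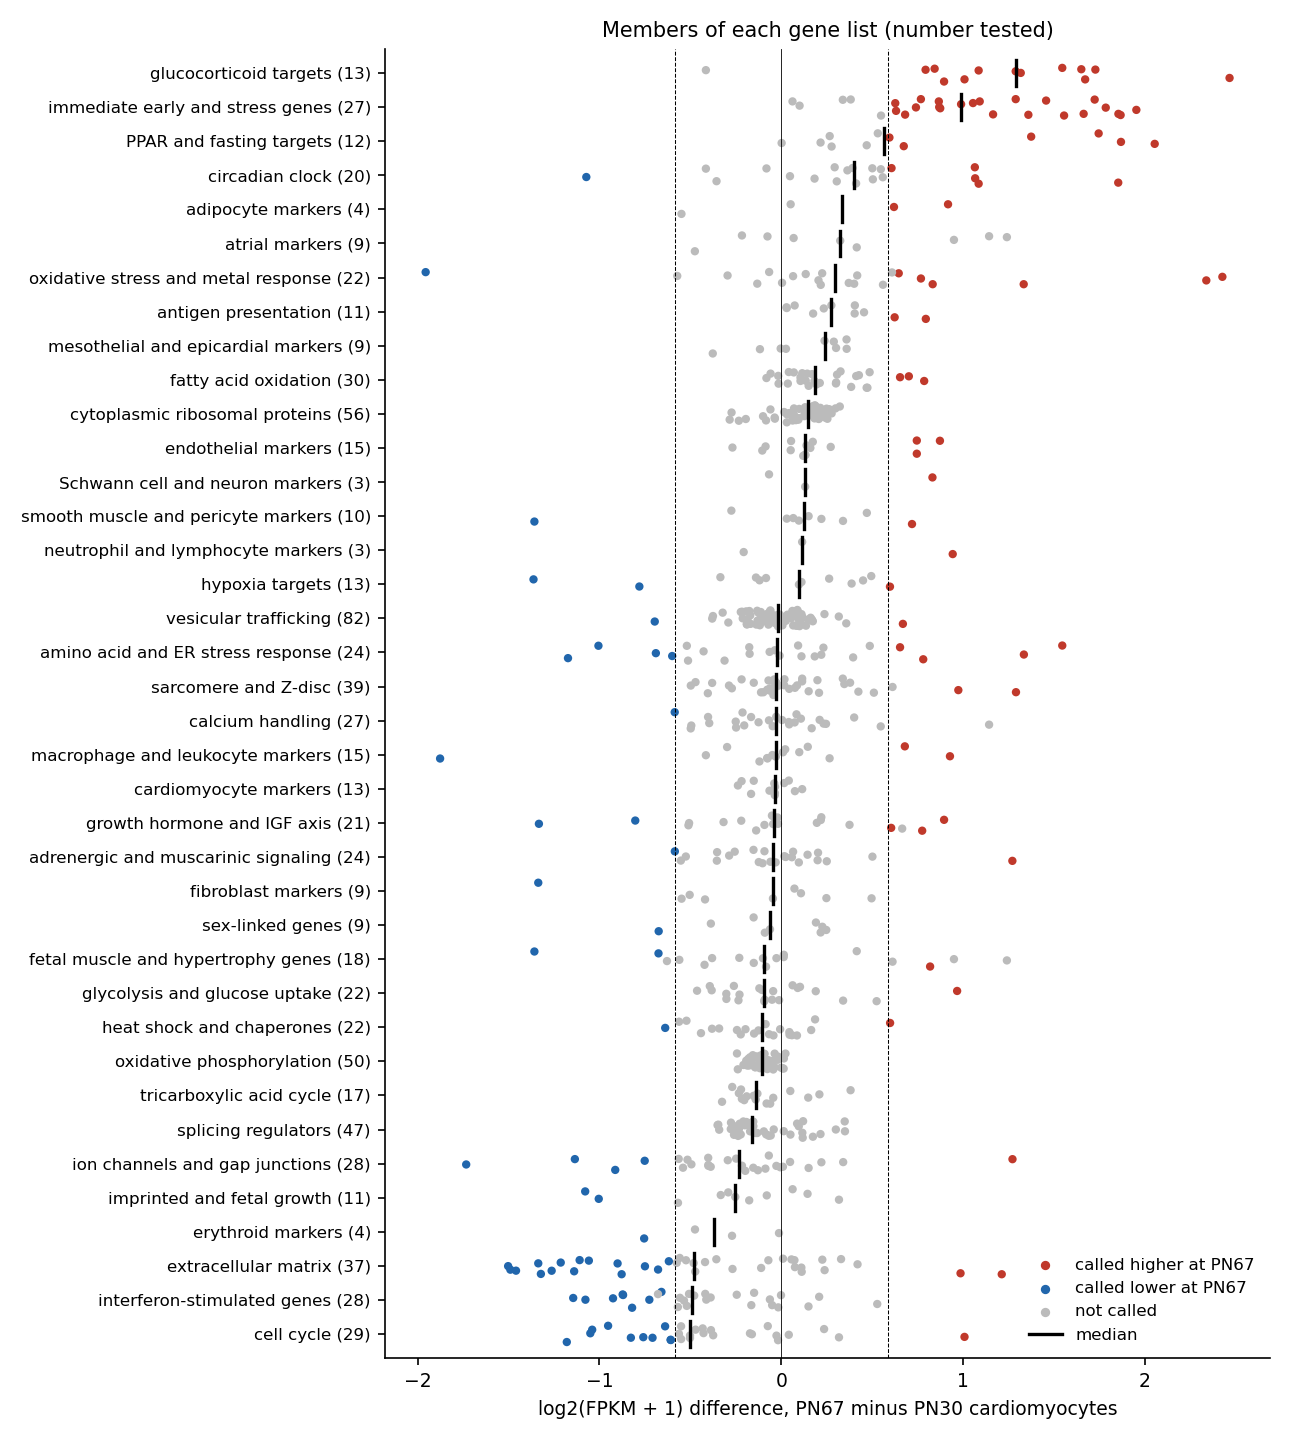
Difference in log2(FPKM + 1) between PN67 and PN30 cardiomyocytes for each tested member of the gene lists, with the number tested in parentheses, the median as a black bar and 1.5-fold as dashed lines. Glucocorticoid targets (median 1.29) and immediate early genes (0.99) lie furthest to the right, and the cell cycle (-0.50), interferon (-0.49) and extracellular matrix (-0.48) lists furthest to the left.

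Glucocorticoid targets were higher at PN67 almost throughout. Of 13 tested members, 12 were called higher and none lower, with a median difference of 1.29. Fkbp5, which encodes a chaperone partner of the glucocorticoid receptor (chr17:28536040-28654469), had 23.7 FPKM at PN67 and 3.46 FPKM at PN30, a 6.84-fold difference, and 11.2 and 10.9 FPKM in the neonatal libraries. Zbtb16, a zinc finger transcription factor, had 29.5 FPKM at PN67 and 8.21 FPKM at PN30. Lcn2, the iron-siderophore binding lipocalin, had 3.93 FPKM at PN67 and 0.548 FPKM at PN30. The other 9 called members were Sult1a1, Ddit4, Sgk1, Errfi1, Per1, Cdkn1a, Pik3ip1, Tsc22d3 and Klf15, with differences between 0.79 (Klf15) and 1.65 (Sult1a1). Tsc22d3, which encodes the glucocorticoid-induced leucine zipper protein, was the most abundant, with 101 FPKM at PN67 and 55.7 FPKM at PN30. The 1 member not called was Nfil3, with 7.08 FPKM at PN67 and 9.77 FPKM at PN30.

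The age order of these genes was not shared. Sgk1, the serum- and glucocorticoid-regulated kinase, had 310 and 333 FPKM in the neonatal libraries, 21.9 FPKM at PN30 and 56.1 FPKM at PN67, whereas Zbtb16 and Klf15 had at most 1.22 FPKM in the neonatal libraries and were highest at PN67. In whole ventricles, where 11 members were measured, 1 was at least 1.5-fold higher at PN90 than at PN28 (2.35% of genes were) and 3 were at least 1.5-fold lower (1.90%), with a median of -0.05. Fkbp5 had 4.49 FPKM at PN90 and 4.40 FPKM at PN28 in ventricles. In fibroblasts 6 of 13 were at least 1.5-fold higher at PN60 than at PN28, beside 10.9% of all genes, and none was that much lower, beside 9.70%. Ages, isolation and library preparation differed between these comparisons, and their part in the result was not tested.

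The promoter of Sgk1 is shown because it held the receptor's motif in a list whose members moved together. RefSeq promoters (GRCm38.p6, 250 bases before to 50 after a start) were on file for 11 of the 12 genes called higher. The palindromic glucocorticoid response element was searched on both strands as GNACA and TGTNC with 3 bases between them. It was in 1 of the 21 promoters of these genes, beside 0.475% of 32851 promoters on file. Counted by gene, this was 1 of 11, beside 0.537% of 27025 genes with a promoter on file. That gene was Sgk1, in 1 of its promoters (chr10:21993640-21993939, + strand), where the element began at position -188 and the E-box CACGTG at -246 (both in capitals, counted from the start).

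Sgk1 promoter: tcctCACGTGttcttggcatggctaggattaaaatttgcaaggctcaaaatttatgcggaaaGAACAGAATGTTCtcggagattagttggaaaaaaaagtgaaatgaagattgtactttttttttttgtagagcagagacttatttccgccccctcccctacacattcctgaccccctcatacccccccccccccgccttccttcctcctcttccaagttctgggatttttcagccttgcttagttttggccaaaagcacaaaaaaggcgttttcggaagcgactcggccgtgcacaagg

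Immediate early and stress genes were higher at PN67 as a group. Of 27 tested, 22 were called higher and none lower, the median difference was 0.99, and all 27 were higher in sign. Their summed level was 1814 FPKM at PN67 and 797 FPKM at PN30, against 2809 and 2976 FPKM in the neonatal libraries. Fos, a subunit of the AP-1 transcription factor, had 207 FPKM at PN67 and 69.6 FPKM at PN30. Zfp36, which encodes a protein that promotes mRNA decay, had 160 FPKM at PN67 and 43.1 FPKM at PN30. Socs3, an inhibitor of cytokine signaling, had 27.1 FPKM at PN67 and 6.26 FPKM at PN30, and the nuclear receptor gene Nr4a1 had 62.9 and 16.7 FPKM. In these genes PN30 was the low library of the 4, since the neonatal libraries had at least 272 FPKM of Fos, 129 FPKM of Zfp36, 34.1 FPKM of Socs3 and 85.4 FPKM of Nr4a1. The 5 members not called were Klf9, Ier5, Ier3, Fosl2 and Jund, the last of these with 16.3 FPKM at PN67 and 15.6 FPKM at PN30.

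In whole ventricles, from which no cells were isolated and which were scaled separately, Fos had 1.19 FPKM at PN90 and 1.11 FPKM at PN28. Of 23 members measured there, 3 were at least 1.5-fold higher at PN90 than at PN28, beside 2.35% of all genes, and 1 was that much lower, beside 1.90%, with a median of 0.05. In fibroblasts, 13 of 27 were at least 1.5-fold higher at PN60 than at PN28, beside 10.9% of all genes, and 1 was that much lower, beside 9.70%. Fos had 438 FPKM in fibroblasts at PN60 and 89.4 FPKM at PN28. Whether the dissociation of the PN67 and PN30 hearts differed in length was not tested. The cAMP response element TGACGTCA was in a promoter of 3 of the 17 called genes with a promoter on file, beside 2.03% of all genes, and the AP-1 heptamer TGACTCA in none of the 17, beside 5.95% of genes.

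**Figure D3:**
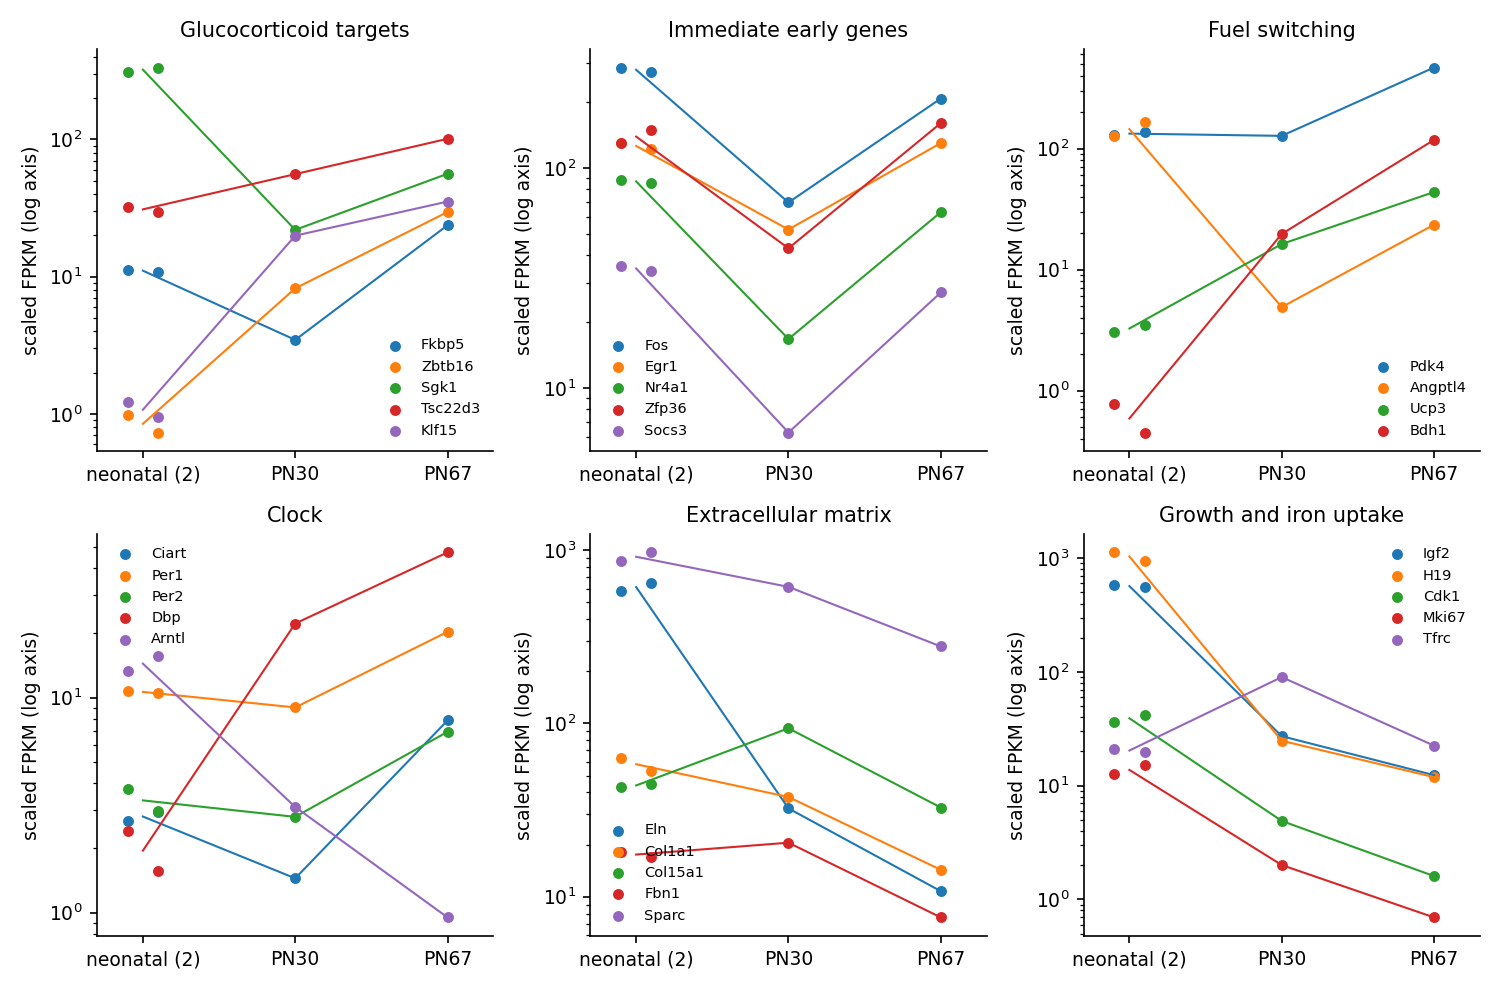
Scaled FPKM (log axis) of 4 or 5 genes from each of 6 groups in the cardiomyocyte libraries in order of age, with both neonatal libraries as separate points and lines through their geometric mean. Immediate early genes share a low point at PN30, the clock gene Arntl runs opposite to Dbp, and Tfrc peaks at PN30.

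PPAR and fasting targets include genes that switch muscle toward fat as fuel. Of 12 tested, 6 were called higher at PN67, none was called lower and 6 were not called, with a median of 0.56. Pdk4, the kinase that shuts off pyruvate dehydrogenase, had 468 FPKM at PN67 and 127 FPKM at PN30, a 3.67-fold difference, and 130 and 137 FPKM in the neonatal libraries. Angptl4, an inhibitor of lipoprotein lipase, had 23.5 FPKM at PN67 and 4.90 FPKM at PN30. The uncoupling protein gene Ucp3 had 43.8 FPKM at PN67 and 16.3 FPKM at PN30. Pdk4 and Ucp3 were higher at PN67 than in any other cardiomyocyte library, while Angptl4 was higher still in the neonatal ones. The called members also held Ppargc1a, a coactivator of mitochondrial genes (42.0 FPKM at PN67 and 26.0 FPKM at PN30), and Ucp2. The receptor gene Ppara itself had 16.4 FPKM at both ages.

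The enzymes of fatty acid oxidation moved little. Of 30 tested, 26 were higher in sign, 3 were called higher and none lower, with a median of 0.19. The called genes were Acot2, a mitochondrial acyl-CoA thioesterase (54.7 FPKM at PN67 and 31.3 FPKM at PN30), Ech1, a dienoyl-CoA isomerase (1298 and 797 FPKM), and the fatty acid transporter Cd36 (785 and 499 FPKM). Of 50 oxidative phosphorylation genes, 17 of the tricarboxylic acid cycle, 56 of cytoplasmic ribosomal proteins and 47 splicing regulators, none was called, with medians of -0.11, -0.14, 0.15 and -0.16. In glycolysis and glucose uptake 1 of 22 was called, Pfkfb1, a bifunctional enzyme that sets the level of fructose 2,6-bisphosphate, with 13.6 FPKM at PN67 and 6.45 FPKM at PN30. Pdk4 had 131 FPKM at PN90 and 122 FPKM at PN28 in ventricles, and 1 of 12 PPAR and fasting targets was at least 1.5-fold higher there at PN90, beside 2.35% of all genes.

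Of 20 tested clock genes, 5 were called higher at PN67 and 1, the core activator gene Arntl, lower, with a median of 0.40. Ciart, a circadian repressor (chr3:95682426-95686174), had 7.84 FPKM at PN67 and 1.44 FPKM at PN30, with intervals of 6.13 to 9.59 FPKM and 0.933 to 2.07 FPKM. The period genes Per1 (20.2 FPKM at PN67 and 9.01 FPKM at PN30) and Per2 (6.94 and 2.79 FPKM), which encode the feedback inhibitors of the clock, were higher too. Dbp, a transcription factor of the clock's output, had 47.4 FPKM at PN67 and 22.1 FPKM at PN30, and the repressor gene Bhlhe41 had 7.24 and 4.41 FPKM. Arntl, which encodes BMAL1, the partner of CLOCK in the activating pair, had 0.951 FPKM at PN67 and 3.10 FPKM at PN30, with intervals of 0.818 to 1.08 FPKM and 2.86 to 3.35 FPKM. All 6 called genes had the same sign of difference between PN90 and PN28 ventricles except Per1, with 1.98 FPKM at PN90 and 2.09 FPKM at PN28. Ciart had 4.27 FPKM at PN90 and 0.936 FPKM at PN28 there, and Arntl 3.54 and 8.70 FPKM. The hour of collection is not in the labels, so age and time of day cannot be told apart.

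Of the other members, Nr1d1, which encodes the repressor REV-ERB alpha, had 38.3 FPKM at PN67 and 40.6 FPKM at PN30, and Nr1d2 had 39.5 and 29.4 FPKM. The output factors Tef (42.7 FPKM at PN67 and 28.9 FPKM at PN30) and Hlf (11.7 and 7.93 FPKM) were higher in sign but not called. The same held for Cry2 (16.4 FPKM at PN67 and 11.3 FPKM at PN30), Per3 (9.97 and 7.36 FPKM), Rora (a difference of 0.36), Csnk1e (27.4 and 22.0 FPKM) and Cry1 (4.99 and 3.88 FPKM). Usp2 (44.8 and 39.3 FPKM) and Bhlhe40 (33.6 and 32.4 FPKM) differed less, and Clock had 4.28 FPKM at PN67 and 5.76 FPKM at PN30.

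The E-box CACGTG, which the BMAL1 and CLOCK pair binds, was in a promoter of 3 of the 4 clock genes called higher that had a promoter on file, beside 8.09% of 27025 genes. These were Ciart, Per1 and Bhlhe41, and the promoter of Dbp had none. The same motif was in a promoter of 4 of 11 glucocorticoid targets called higher, Per1 among them (36.4%), and of 5 of 17 immediate early and stress genes called higher (29.4%). Some genes have several promoters on file. Counted by promoter, the E-box was in 3 of 5, 4 of 21 and 5 of 19 in these lists, beside 7.15% of 32851. The D-box, searched as TTATGTAA and TTATGCAA on both strands, was in a promoter of 1 of the 4 clock genes, Per1, beside 1.98% of genes. The promoters of Ciart (chr3:95882179-95882478, - strand) and Per1 (chr11:69098699-69098998, + strand) are shown with these motifs in capitals, the E-boxes of Ciart beginning at -116, -58 and -44, and the E-box and D-box of Per1 at -166 and -24.

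Ciart promoter: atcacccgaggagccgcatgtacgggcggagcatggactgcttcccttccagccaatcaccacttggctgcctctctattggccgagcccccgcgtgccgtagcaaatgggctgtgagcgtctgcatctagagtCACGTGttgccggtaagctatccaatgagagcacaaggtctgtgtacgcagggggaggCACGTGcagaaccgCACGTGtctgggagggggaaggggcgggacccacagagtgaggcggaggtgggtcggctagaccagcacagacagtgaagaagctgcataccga
Per1 promoter: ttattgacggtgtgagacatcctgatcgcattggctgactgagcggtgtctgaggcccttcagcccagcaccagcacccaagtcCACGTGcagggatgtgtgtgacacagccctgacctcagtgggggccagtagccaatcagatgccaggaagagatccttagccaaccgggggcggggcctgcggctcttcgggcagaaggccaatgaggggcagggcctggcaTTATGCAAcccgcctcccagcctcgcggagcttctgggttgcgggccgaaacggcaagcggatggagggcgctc

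Stress genes moved in part. Of 22 genes of the oxidative stress and metal response, 6 were called higher and 1, Tfrc, lower. The metal-binding metallothioneins had 65.4 FPKM (Mt2) and 409 FPKM (Mt1) at PN67, against 11.3 and 162 FPKM at PN30. Gsta3 had 30.2 FPKM at PN67 and 5.17 FPKM at PN30, and Gstm1, Hmox1 and the ferritin light chain gene Ftl1 were also called. Among 24 genes of the amino acid and endoplasmic reticulum stress response, 4 were called higher and 4 lower. Herpud1, of protein degradation at the endoplasmic reticulum, had 327 FPKM at PN67 and 129 FPKM at PN30, whereas Manf (40.1 and 81.5 FPKM), Sdf2l1 (3.42 and 8.98 FPKM), Hyou1 and Pdia6, which encode proteins that serve folding in that compartment, were lower. Mt2 and Mt1 were not higher in PN90 ventricles, with 9.50 FPKM of Mt2 at PN90 and 13.2 FPKM at PN28.

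Matrix transcripts were lower at PN67. Of 37 tested extracellular matrix genes, 15 were called lower and 2 higher, with a median of -0.48. Eln, which encodes elastin (chr5:135179651-135223111), had 10.8 FPKM at PN67 and 32.3 FPKM at PN30, a 3.00-fold difference, and 580 and 646 FPKM in the neonatal libraries. Col15a1, a basement membrane collagen, had 32.7 FPKM at PN67 and 93.7 FPKM at PN30. The fibrillar collagen genes Col1a1 (14.3 FPKM at PN67 and 37.6 FPKM at PN30) and Col5a3 (3.63 and 11.7 FPKM) and the fibrillin gene Fbn1 (7.60 and 20.5 FPKM) were lower too. Serpinh1, the collagen chaperone, had 83.9 FPKM at PN67 and 196 FPKM at PN30, and the matricellular Sparc had 278 and 614 FPKM. The remaining called genes were Col5a1, Col5a2, Col6a1, Col6a2, Col14a1, Col18a1, Loxl1 and Loxl2. The fall was not general, since Mgp, an inhibitor of calcification, had 896 FPKM at PN67 and 452 FPKM at PN30, Thbs2 had 14.0 and 5.48 FPKM, and Lum had 83.0 and 78.9 FPKM.

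Ventricles, in which all 37 were measured, showed 20 at least 1.5-fold lower at PN90 than at PN28 (1.90% of genes were) and none that much higher, with a median of -0.59. Eln had 1.25 FPKM at PN90 and 6.66 FPKM at PN28 there. In fibroblasts 2 of 37 were that much lower at PN60 than at PN28, beside 9.70% of all genes, 3 were that much higher, beside 10.9%, and the median was 0.07. Several abundant matrix genes were left out because a transcript had failed or was too deep in a fibroblast library. With that rule taken over the 4 cardiomyocyte libraries alone, 42 matrix genes were tested, 18 lower and 4 higher. Col3a1 then had 52.7 FPKM at PN67 and 159 FPKM at PN30, Col4a1 had 90.8 and 202 FPKM, and Col4a2 had 68.3 and 145 FPKM. In the other direction Dcn, which encodes the proteoglycan decorin, had 698 FPKM at PN67 and 403 FPKM at PN30. The fibroblast marker Gsn, which encodes gelsolin, was called higher by this rule too, and Postn, which encodes periostin, was called lower, with 16.0 FPKM at PN67 and 34.9 FPKM at PN30. Of the other fibroblast markers, Pdgfra had 13.1 FPKM at PN67 and 8.98 FPKM at PN30, Tcf21 had 14.1 and 11.7 FPKM, and Dpt had 70.2 and 72.5 FPKM, and none of these was called.

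Cell cycle transcripts, already low at PN30, were lower at PN67. Of 29 tested, 10 were called lower and 1 higher, with a median of -0.50. Cdk1, the mitotic kinase, had 1.61 FPKM at PN67 and 4.90 FPKM at PN30, against 36.6 and 42.0 FPKM in the neonatal libraries, and its intervals were 1.12 to 2.26 FPKM at PN67 and 3.95 to 5.94 FPKM at PN30. Top2a, a topoisomerase of dividing cells, had 0.744 FPKM at PN67 and 2.61 FPKM at PN30, and the replication helicase gene Mcm6 had 1.22 and 3.57 FPKM. Ccnd1, which encodes cyclin D1, was the most abundant called gene of the list, with 15.0 FPKM at PN67 and 26.1 FPKM at PN30. The gene called higher was the inhibitor Cdkn1a, with a difference of 1.01 on the log2 scale. Among genes with a mean of at least 5 FPKM, 1 of the list was lower. In ventricles 1 of 23 members was at least 1.5-fold higher at PN90, beside 2.35% of all genes, and none was that much lower, beside 1.90%, with a median of -0.03. The imprinted growth genes Igf2 and H19 were lower too, with 12.4 FPKM of Igf2 at PN67 and 27.3 FPKM at PN30, and 11.9 and 24.9 FPKM of H19. Both had at least 558 FPKM in each neonatal library, and no other of the 11 imprinted genes tested was called.

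Interferon-stimulated genes were lower in 8 of 28 cases and never called higher, with a median of -0.49. Ifi27l2a had 14.4 FPKM at PN67 and 32.9 FPKM at PN30, the ubiquitin-like Isg15 had 3.84 and 9.21 FPKM, and the GTPase gene Iigp1 had 7.29 and 14.7 FPKM. In fibroblasts 25 of 28 were at least 1.5-fold lower at PN60 than at PN28, beside 9.70% of all genes, with a median of -1.89. In ventricles none of 24 was that much higher at PN90 than at PN28, beside 2.35% of all genes, or that much lower, beside 1.90%. Of 11 antigen presentation genes, 2 were called higher: the class II genes Cd74 (114 FPKM at PN67 and 73.9 FPKM at PN30) and H2-Aa (22.6 and 12.6 FPKM).

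The contractile genes that define the cell type and the calcium handling genes were mostly level, each list with a median of -0.03, while ion channel genes leaned lower. Of 39 sarcomere and Z-disc genes 2 were called higher. Tcap, which encodes telethonin at the Z-disc, had 1986 FPKM at PN67 and 1010 FPKM at PN30, and Myot, which encodes myotilin, had 35.7 and 14.0 FPKM. Ventricles had 893 FPKM of Tcap at PN90 and 442 FPKM at PN28, and 51.0 and 20.9 FPKM of Myot. Casq2, the calcium buffer of the sarcoplasmic reticulum, was the 1 called of 27 calcium handling genes, with 368 FPKM at PN67 and 552 FPKM at PN30. Its difference of -0.586 barely passed the threshold of 0.585, and over the settings 0 to 1 genes of the list were called lower. The largest rise in that list, 1.14 on the log2 scale, was not called. Of 28 ion channel and gap junction genes, 22 were lower in sign, beside 6538 of all 11674 genes, with a median of -0.23. The 4 called lower (14.3%, beside 2.16% of all genes) were Kcne1, the T-type calcium channel gene Cacna1g (7.46 FPKM at PN67 and 17.6 FPKM at PN30), the connexin 43 gene Gja1 (142 and 268 FPKM) and the pacemaker channel gene Hcn2 (14.1 and 24.4 FPKM). The sodium channel subunit gene Scn4b was higher, with 27.0 FPKM at PN67 and 10.6 FPKM at PN30, and 0.175 and 0.126 FPKM in the neonatal libraries. Among adrenergic and muscarinic genes 2 of 24 were called. Adra1a, an alpha-1 receptor, had 11.0 FPKM at PN67 and 3.99 FPKM at PN30, and Adrb1, the main beta receptor of cardiomyocytes, had 6.69 and 10.5 FPKM. The Adrb1 difference, -0.5853, also barely passed the threshold, and 0 to 1 genes of this list were called lower over the settings. Gja1 did not differ in ventricles, with 265 FPKM at PN90 and 259 FPKM at PN28.

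In vesicular trafficking, 2 of 82 genes were called, among them the muscle caveolin gene Cav3, which was lower (71.2 FPKM at PN67 and 116 FPKM at PN30). In the growth hormone and IGF axis 3 of 21 were higher, among them Foxo3 (29.2 FPKM at PN67 and 16.6 FPKM at PN30), and 2 were lower, Igfbp7 (7.79 and 21.1 FPKM) and Irs1 (3.20 and 6.33 FPKM). Of 13 hypoxia targets, Apln, which encodes apelin (5.32 FPKM at PN67 and 15.3 FPKM at PN30), and the prolyl hydroxylase gene Egln3 (62.7 and 108 FPKM) were lower and Bnip3 (148 and 97.6 FPKM) was higher. Acta2, the smooth muscle actin gene that is also active in immature cardiomyocytes, had 66.3 FPKM at PN67 and 171 FPKM at PN30. Of the erythroid markers, Hba-a2 was lower (379 FPKM at PN67 and 639 FPKM at PN30), and Hbb-bt (328 and 457 FPKM), Alas2 (5.33 and 6.63 FPKM) and Bpgm (12.6 and 12.7 FPKM) were not called. Sex-linked genes were present from both sex chromosomes in both libraries. Xist, the RNA of the inactive X chromosome, had 11.0 FPKM at PN67 and 18.2 FPKM at PN30. Of the Y genes, Eif2s3y had 23.5 FPKM at PN67 and 20.5 FPKM at PN30, Ddx3y had 10.9 and 9.15 FPKM, Uty had 4.46 and 3.60 FPKM, and Kdm5d had 2.08 and 1.65 FPKM. Their X partners Ddx3x, Eif2s3x, Kdm5c and Kdm6a were not called. The part of sex in the other results was not tested.

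The other lists held few called members. Among 22 heat shock and chaperone genes 1 was higher, Hspb7 (1138 FPKM at PN67 and 751 FPKM at PN30), and 1 lower, Hspa1a (3.25 and 5.61 FPKM). Of 18 fetal muscle and hypertrophy genes, Ces1d, a carboxylesterase gene, was higher (116 FPKM at PN67 and 65.1 FPKM at PN30), and Acta2 and Rcan1 were lower. The largest rise in that list, 1.24 on the log2 scale, was not called. Among markers of other cells, 3 of 15 endothelial genes were higher (Fabp4, Aqp1 and Flt1), 2 of 15 macrophage and leukocyte genes (Cd163 and Cd14) were higher and Fcgr3 lower, and 1 of 10 smooth muscle and pericyte genes (Tagln) was higher beside the lower Acta2. Of the 9 fibroblast markers tested, Col1a1 was the 1 called, and it was lower. Of all 13 under the rule over 4 libraries, 2 were higher (Gsn and Dcn) and 3 lower (Col1a1, Col3a1 and Postn). The adipocyte list had 2 of 4 higher (Plin4 and Pparg), the Schwann and neuron list 1 of 3 (Cdh19), the neutrophil and lymphocyte list 1 of 3 (Igkc), and the mesothelial list none of 9. The adipocyte genes Adipoq and Plin1 were at most 0.399 FPKM at either age, below the filter.

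The called genes were then read in whole ventricles at PN90 and PN28, which lie further apart in age and hold all cell types. Of the 224 genes called lower in cardiomyocytes and measured in ventricles, 193 (86.2%) were lower in sign, with a median of -0.37, and 72 (32.1%) were at least 1.5-fold lower, which is 35.6% of all ventricle genes that much lower. Of the 328 called higher, 237 (72.3%) were higher in sign, with a median of 0.22, and 78 (23.8%) were at least 1.5-fold higher, which is 31.2% of all ventricle genes that much higher. Over all 10659 genes measured in both, 2.35% were that much higher, 1.90% that much lower and the median was 0.01. In sign, 51.1% of them were higher and 48.9% lower. The opposite change of at least 1.5-fold was seen in 8 of the genes called higher and 2 of those called lower. In fibroblasts at PN60 and PN28, 101 of 306 genes called higher (33.0%) were at least 1.5-fold higher as well, which is 9.17% of all fibroblast genes that much higher, and 31 of 183 called lower (16.9%) were that much lower, which is 3.17%. In sign, 232 of the 306 (75.8%) were higher in fibroblasts, with a median of 0.39, but 85 of the 183 (46.4%) were lower, with a median of 0.04. Of all genes measured in fibroblasts too, 49.1% were higher in sign and 50.9% lower. The opposite fibroblast change of at least 1.5-fold was seen in 28 of the 183 genes called lower (15.3%) and 20 of the 306 called higher. Over all 10074 genes measured in fibroblasts too, 10.9% were that much higher and 9.70% that much lower, so the shares for the genes called lower lay nearer to those of all genes than the share for the genes called higher did.

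**Figure D4:**
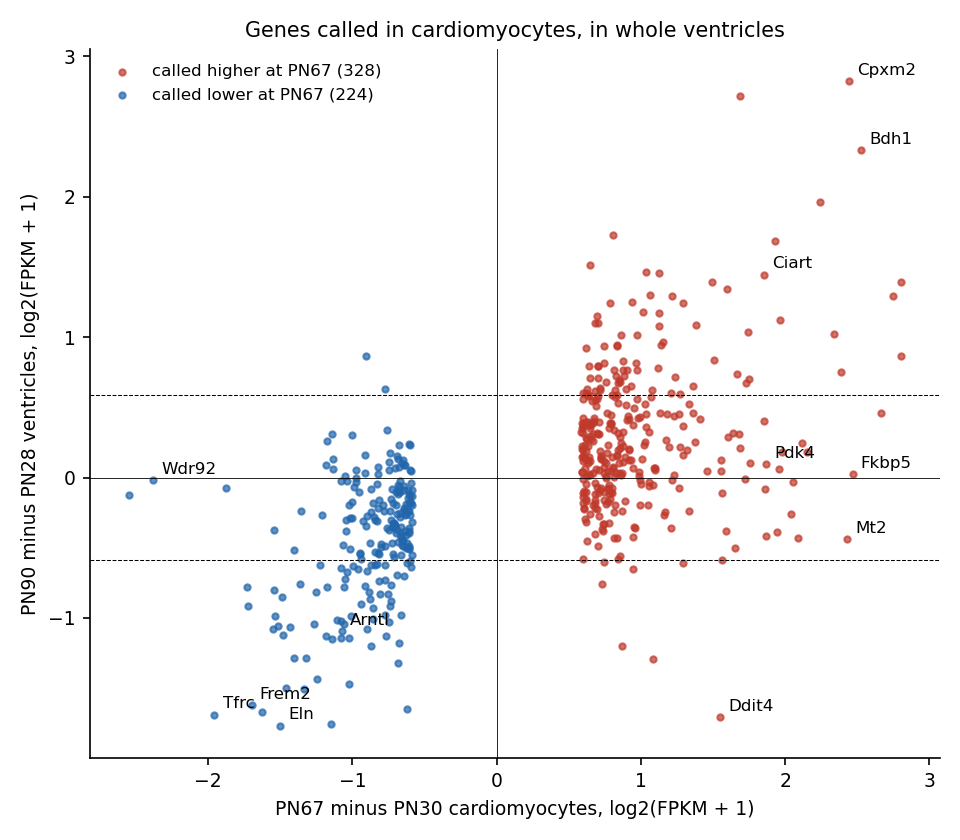
Difference in log2(FPKM + 1) between PN90 and PN28 ventricles (vertical axis) against that between PN67 and PN30 cardiomyocytes (horizontal axis) for the genes called in cardiomyocytes and measured in ventricles, 328 higher in red and 224 lower in blue, with dashed lines at 1.5-fold. Bdh1 and Cpxm2 moved up and Tfrc, Frem2 and Eln down in both, Fkbp5, Pdk4 and Wdr92 lie near 0 in ventricles, and Ddit4 moved the other way.

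Isoform use was compared as the share of each transcript in the FPKM of its gene. Of 9125 isoforms in 3429 genes, 111 (1.22%) were called higher and 100 (1.10%) lower in share at PN67, by at least 10 percentage points, with bounds apart and above a neonatal noise limit of 8.59 points. That limit lay below the 10-point threshold, so within the noise rule only an isoform's own neonatal difference could remove it. The called isoforms are described here without a test. The called isoforms belonged to 143 genes, of which 16 were also called in level. The largest changes were in lowly expressed genes. Gon4l-202 made up 96.0% of Gon4l at PN67 and 40.4% at PN30, and Gon4l-201 made up 3.97% and 58.2%. The neonatal libraries had 86.7% and 93.3% of Gon4l-202, so PN30 stood apart. Prmt1-201, of an arginine methyltransferase gene, made up 49.2% at PN67 and 1.93% at PN30, with 41.8% and 69.4% in the neonatal libraries, and Prmt1-202 made up 50.8% at PN67 and 98.1% at PN30. Gbp9-202 made up 58.7% at PN67 and 27.7% at PN30, with 7.61% and 9.30% in the neonatal libraries, and 53.1% at PN90 against 23.7% at PN28 in ventricles. The Gbp9-201 share was 41.3% at PN67 and 72.3% at PN30.

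Tsc22d3-201 made up 76.1% of the abundant Tsc22d3 at PN67 and 47.6% at PN30, and in deposited FPKM this isoform had 68.5 FPKM at PN67 and 24.0 FPKM at PN30. Tsc22d3-203, which spans more of the genome, had 15.5 and 14.7 FPKM, so Tsc22d3-201 carried the rise of the gene. Ventricles showed 59.8% of Tsc22d3-201 at PN90 and 63.4% at PN28. Rcan1, a calcineurin inhibitor gene, was lower in level through 1 isoform. Rcan1-201 had 14.8 FPKM at PN67 and 38.5 FPKM at PN30 in deposited FPKM, and the share of Rcan1-202 was 60.8% at PN67 and 37.5% at PN30. Agpat1-207, annotated as subject to nonsense-mediated decay, made up 27.1% at PN67 and 1.21% at PN30, and Msto1-204, a retained intron, made up 29.3% and 55.6%. Pym1-202 made up 58.2% at PN67 and 32.2% at PN30 while Pym1-201 made up 41.8% and 67.8%, and Tmem216-202 made up 35.0% and 58.3%. No called isoform belonged to a gene of the sarcomere, calcium, channel or splicing lists, beside 143 of 3429 genes over all those compared. How many genes of these lists met the isoform filters is not given here. Genes with a failed or too deep transcript, such as Tpm1, Actc1 and Atp2a2, were not compared, so stable isoform use cannot be read from this. In the trafficking list Epn1, of the endocytic adaptor epsin, had 33.7% of Epn1-201 at PN67 and 19.5% at PN30. Epn1-202 made up 36.2% and 49.1%. These are differences of 14.2 and -12.9 points, against -11.5 and 12.2 points between neonatal replicate 2 and replicate 1. Libraries of 1 group thus differed almost as much in Epn1. Ventricles had 3.25% of Epn1-201 at PN90 and 3.53% at PN28, and 52.3% and 59.6% of Epn1-202.

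**Figure D5:**
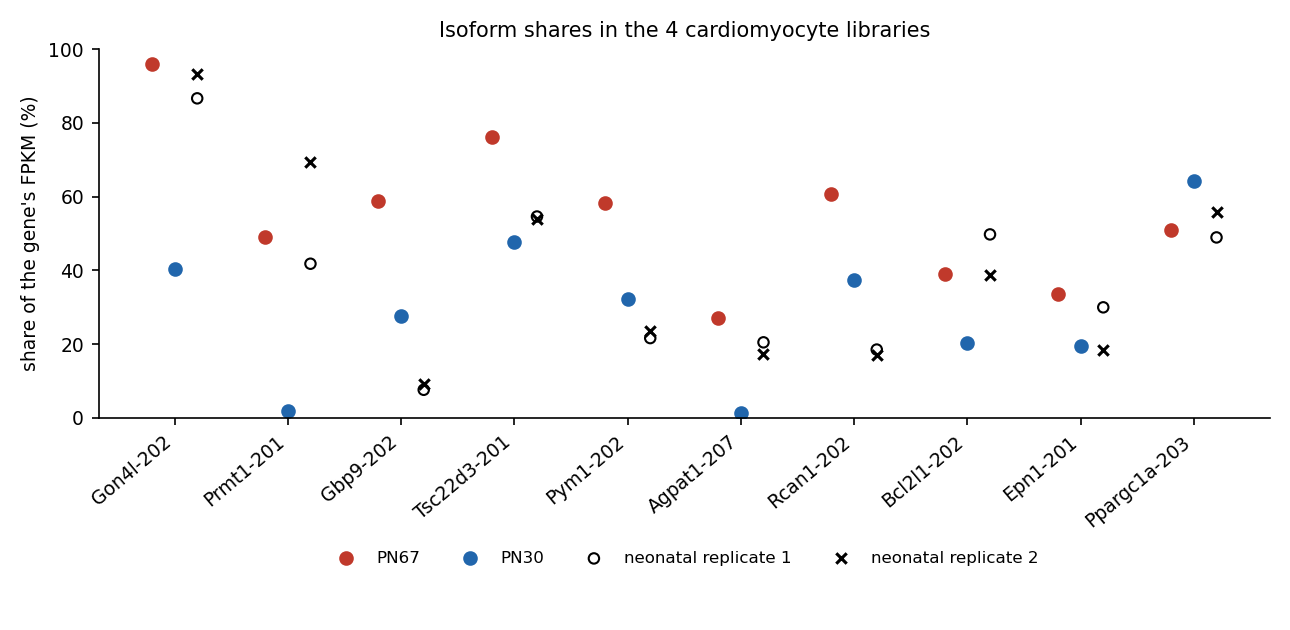
Share of the gene's FPKM (vertical axis, percent) of 10 isoforms called between PN67 (red) and PN30 (blue) cardiomyocytes, with the neonatal replicates as black symbols. For Gon4l-202 and Prmt1-201 the PN67 share lies with the neonatal ones and PN30 lies apart, while for Gbp9-202 and Rcan1-202 both neonatal shares lie below PN30 and PN67.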

How the data were processed

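The authors' deposited tables held, for 94696 transcripts in each library, FPKM with bounds, a coverage value and a status. TopHat2 2.0.5, Cufflinks 2.1.1 and, as the genome build, mm9 were used per the submitters' processing notes. An annotation release was not given in the sources used here. The deposited FPKM is per length and library size, and fragments shared by isoforms, paralogs or overlapping genes are divided by an estimate. The deposited coverage signal was used only as a measure of depth.

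Transcripts were matched to GENCODE M21 for names (82384, 87.0%); unmatched ones held 7.22% of the FPKM at PN67 and 7.12% at PN30. Gene FPKM was the sum over transcripts of at least 200 nucleotides. The 90 genes with a failed or too deep transcript in any isolated-cell library, listed at 0 there, were left out. Libraries were scaled by the median of ratios over the 8 isolated-cell libraries and, separately, the 5 ventricles. Genes with a mean of at least 1 FPKM were compared with a pseudocount of 1. Isoforms were compared in genes of at least 5 FPKM in both libraries. The calling rule was tested on simulated data, in which the noise between gene values was set to the spread of the neonatal pair. Spread between separate Langendorff isolations was not simulated, so the rate of false calls between PN67 and PN30 is not known. Python 3.11.15, numpy 2.4.6 and pandas 2.3.3 were used.

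The members and the 38 gene lists were chosen with earlier results of these data known. Genes named were the 12 largest rises and falls, in each list up to 3 called members each way and the 2 most abundant, and the members of the clock, sex-linked and erythroid lists, apart from 3 genes that are not reported here; isoforms named were the 6 largest rises and falls of share. Other names complete the account of a list and were chosen after their values were seen, as were the motifs other than the E-box and D-box and the rule over 4 libraries for matrix genes and fibroblast markers. No set or list was tested. Scaling, pseudocount, filters, guards and noise limits were varied.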

Additional observations from a re-analysis of the deposited data

Results flagged for a closer look

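Several genes called in cardiomyocytes changed at least 1.5-fold the other way in another pair of libraries, each with 1 library per age, and none of these differences was tested. In ventricles Ddit4, an inhibitor of mTOR signaling, differed by -1.71 on the log2(FPKM + 1) scale between PN90 and PN28, against 1.55 between PN67 and PN30 cardiomyocytes. The water channel gene Aqp1 differed by -0.605 in ventricles, against 0.75 in cardiomyocytes.

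In fibroblasts at PN60 against PN28, genes called lower in cardiomyocytes were higher for Gja1 (0.67), Cav3 (1.07), the heat shock gene Hspa1a (1.12), the hemoglobin gene Hba-a2 (0.642) and Xist (1.46). Genes called higher in cardiomyocytes were lower in fibroblasts for Gdf15, a stress-induced cytokine (-1.09), Ciart (-0.647) and Pparg (-0.892). Ages, isolation and library preparation differ between these pairs.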

How the results depend on the processing

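With 1 library per age, no replicate could be left out, and the deposited intervals cover only the counting and assignment error of each library. No paired analysis was possible because neither age had a second library. The counts of called genes stayed within 1.5 times of 385 and 252 under the other scalings, a pseudocount of 0.1, no filter, no interval guard, other noise limits and the status rule added after the data were seen. They moved to 246 higher and 163 lower with a mean of at least 5 FPKM, where fewer genes were tested, and to 121 and 70 at 2-fold. With ventricle genes of at least 5 FPKM, 45 of 127 genes called lower fell at least 1.5-fold, beside 1.59% of 7034 genes. Of 190 called higher, 54 rose that much, beside 2.37%. Isoform counts moved to 53 higher and 52 lower at a gene FPKM of at least 10, where fewer isoforms were compared, to 14 and 12 at 20 points, and to 152 lower without the bounds. Over the settings, glucocorticoid targets called higher numbered 9 to 12, immediate early genes 13 to 23, matrix genes called lower 10 to 18, cell cycle genes 1 to 15, interferon genes 2 to 13, clock genes called higher 3 to 6, and fatty acid oxidation and endothelial genes called higher 0 to 3 each. No named gene changed sign, but with a pseudocount of 0.1 the differences of 39 of 182 named genes moved by more than the noise between the neonatal libraries (1 SD), as did 5 with equal sums after removal of mitochondrial genes and 1 with the scaling of PN67 and PN30 alone.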

Other observations

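Of the 637 called genes, 498 were on no list, and the genes named here were chosen after their values were seen. Several act on steroid and retinoid hormones. Hsd11b1, the enzyme that regenerates active glucocorticoid inside cells, had 22.4 FPKM at PN67 and 5.99 FPKM at PN30. The retinaldehyde dehydrogenase gene Aldh1a1 had 30.9 FPKM at PN67 and 8.95 FPKM at PN30, the alcohol dehydrogenase gene Adh1 had 21.6 and 6.52 FPKM, and the retinol-binding protein gene Rbp7 had 153 and 57.1 FPKM. Lrat, the enzyme that esterifies retinol for storage, was among the largest falls, with 0.107 FPKM at PN67 and 2.42 FPKM at PN30, and 0.0839 and 2.44 FPKM in PN90 and PN28 ventricles.

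Txnip, an inhibitor of thioredoxin and of glucose uptake, had 383 FPKM at PN67 and 118 FPKM at PN30, and the glutamine synthetase gene Glul had 257 and 84.0 FPKM. Gabarapl1, of the autophagosome, had 109 FPKM at PN67 and 49.5 FPKM at PN30, and the reticulophagy receptor gene Retreg1 had 127 and 57.7 FPKM. Retreg1 had 266 FPKM at PN90 and 118 FPKM at PN28 in ventricles, and Gabarapl1 had 68.2 and 31.7 FPKM. The transcription factor genes Cebpd (58.5 FPKM at PN67 and 13.0 FPKM at PN30) and Cebpb (27.5 and 12.7 FPKM) were higher, while in ventricles Cebpd had 11.3 FPKM at PN90 and 15.6 FPKM at PN28. Low inflammatory transcripts, Cxcl2 (4.30 FPKM at PN67 and 1.17 FPKM at PN30), Ccl3 (8.26 and 2.80 FPKM), Il1b (3.06 and 0.986 FPKM) and Ptgs2 (3.26 and 0.907 FPKM), each had at most 0.497 FPKM in either of these ventricle libraries. Of the DNA methylation enzymes, Dnmt3a had 9.44 FPKM at PN67 and 18.2 FPKM at PN30, and 6.94 and 13.4 FPKM in PN90 and PN28 ventricles, and Tet1 had 0.917 and 2.50 FPKM in cardiomyocytes and 2.29 and 6.53 FPKM in ventricles.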
